A study of Mus musculus with 2 samples.

Results

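The Hox clusters of the mouse genome hold 6 microRNA (miRNA) genes, Mir10a, Mir10b, Mir196a-1, Mir196a-2, Mir196b and Mir615, and their levels were read in embryonic forebrain. The 6 genes were chosen by name and position, not by level, out of 1973 miRNA genes counted in each table. Among the 1894 of these genes that the annotation placed, no other lies between the outermost Hox genes of a cluster. The data are 2 miRNA sequencing libraries of forebrain from mouse embryos of 16.5 days, strain B6NCrl, healthy and of mixed sex, made from total RNA with a stated size range below 30 (no unit given). Each library came from a pool of embryos, 41 of them in replicate 2, and both pools carry separate biosample records under a single donor entry. There is only 1 group, with no second tissue, stage, genotype or treatment, so levels are described and the 2 pools are set against each other.

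A miRNA is cut from a hairpin precursor and guides repression of messenger RNAs that match its seed, bases 2 to 8. Hox genes encode transcription factors that set position along the body axis, with expression in hindbrain, spinal cord and trunk, while the forebrain forms in front of the Hox domain. The miRNA genes of the clusters are known for expression that follows that of their Hox neighbours, and miR-196 is known to repress Hox messenger RNAs. Mir10a and Mir10b encode the miR-10 miRNAs, the Mir196 genes encode miR-196, and Mir615 stands alone in sequence.

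The mature sequences show which of the 6 genes a short read can tell apart. All 6 genes were matched in the RefSeq table of GRCm38.p6. The 5p products of the miR-10 and miR-196 genes and the 3p product of Mir615 are given 5′ to 3′, with the seed in capitals.
miR-10a-5p: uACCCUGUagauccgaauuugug
miR-10b-5p: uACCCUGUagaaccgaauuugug
miR-196a-5p: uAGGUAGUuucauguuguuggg
miR-196b-5p: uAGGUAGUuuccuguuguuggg
miR-615-3p: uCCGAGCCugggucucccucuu

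Counting from 1 at the 5′ end, miR-10a-5p and miR-10b-5p differed by the single substitution U12A, and miR-196a-5p and miR-196b-5p by A12C. Each of these pairs therefore shares a seed, and no further mature miRNA of the RefSeq table carried either seed. The seed of miR-615-3p was carried by no other mature miRNA there. Mir10a and Mir10b shared no run longer than 15 bases over their annotated transcripts, so an intact mature read has 1 of the 2 as its exact match. How many mismatches the authors' aligner allowed is not given in the sources used here, and a read misread at position 12 would carry the partner's sequence.

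Mir196a-1 and Mir196a-2 encode an identical mature 5p miRNA and cannot be told apart by it. Their hairpins are shown with that product in capitals, because the flanks are all that separate the copies.
Mir196a-1: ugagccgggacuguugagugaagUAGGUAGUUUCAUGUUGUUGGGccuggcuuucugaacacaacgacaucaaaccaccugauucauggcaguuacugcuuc
Mir196a-2: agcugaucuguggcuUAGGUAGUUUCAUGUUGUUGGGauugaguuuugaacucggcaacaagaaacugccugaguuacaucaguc

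The longest run the 2 hairpins shared was 22 bases, exactly the mature 5p product. A read of that product maps to both loci and enters the total of multimapping reads, 40.5% of all reads in replicate 1 and 43.3% in replicate 2, which the tables do not divide by gene. The counts of these copies hold uniquely placed reads only, such as those of the 3p arms or of forms that reach into the flank, and they set no upper limit on miR-196a.

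The genes lie at matching places in the 4 clusters (GRCm38, the assembly mm10 names). Mir10a (ENSMUSG00000065519.1) is at chromosome 11, 96317165 to 96317274, between genes, and lies 1.61 kb before the start codon of Hoxb4. Mir10b (ENSMUSG00000065500.2) is at chromosome 2, 74726070 to 74726137, in introns of 3 transcripts of Hoxd4 and Hoxd3, 1.21 kb before the start codon of Hoxd4. Both miR-10 genes thus sit just before the Hox gene of the same number in their clusters.

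The 3 Mir196 genes lie before the genes numbered 9. Mir196b (ENSMUSG00000065443.1) is on the minus strand of chromosome 6, 52230081 to 52230165, between the start codons of Hoxa10 and Hoxa9. It overlaps an exon of 2 Hoxa9 transcripts and an intron of 1 more. Mir196a-1 (ENSMUSG00000065546.1) is at chromosome 11, 96265164 to 96265265, with no host transcript, 6.38 kb before the start codon of Hoxb9. Mir196a-2 (ENSMUSG00000065488.1) is at chromosome 15, 102973350 to 102973434, between Hoxc10 and Hoxc9 and within an intron of a long Hoxc5 transcript. Mir615 (ENSMUSG00000076010.1) is at chromosome 15, 103014910 to 103015001, in an intron of both Hoxc5 transcripts that span it.

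**Figure D1:**
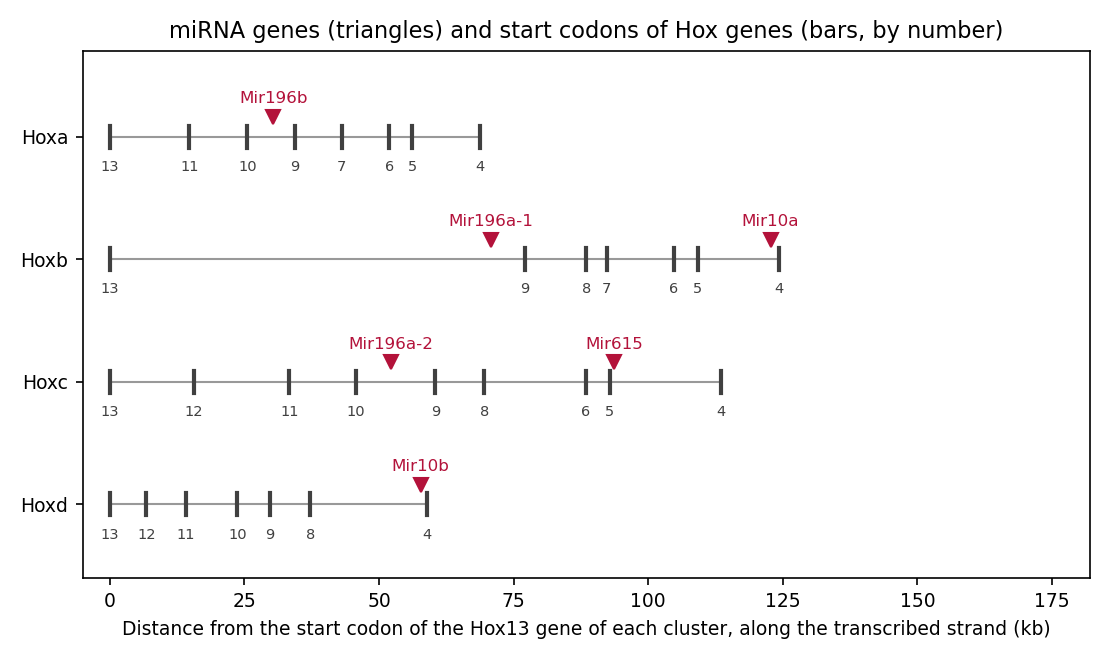
Map of the 4 Hox clusters along the transcribed strand, with distance in kb from the start codon of the Hox13 gene on the x axis. Bars mark the start codon most coding transcripts of a Hox gene share, labelled by the gene's number from 4 up (lower numbers are not drawn), and triangles mark the miRNA genes: Mir10a and Mir10b stand just before the bars numbered 4 (1.61 and 1.21 kb), and the 3 Mir196 genes before the bars numbered 9.

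Depth set what could be seen. Counts on the genes' own strand came to 5060112 in replicate 1 and 4158686 in replicate 2, and levels are given as counts per 1000000 of these (CPM). A count of 0 allows up to 0.593 CPM in replicate 1 and 0.721 CPM in replicate 2, taking 3 counts as the limit. These limits and the intervals below hold counting error alone. They take reads as independent molecules, and copies of 1 molecule read more than once would make them too narrow. The neural miRNAs Mir137 (12348 ± 1260 CPM, SD, n = 2) and Mir92b (4025 ± 162 CPM) were among the higher genes, while Mir9 and Mir124a genes share mature sequence between copies and are uncertain here.

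The miR-10 genes were the most abundant of the 6 by uniquely placed reads, and they held over 9 in 10 of the reads of the set. Mir10a had 2230 counts in replicate 1 and 1129 in replicate 2, or 441 CPM (exact Poisson 95% interval 423 to 459) and 271 CPM (256 to 288). Its mean was 356 ± 120 CPM (SD, n = 2), the 128th level among 703 genes with a count. Mir10b had 1373 and 770 counts, or 271 CPM (257 to 286) and 185 CPM (172 to 199), with a mean of 228 ± 60.9 CPM and the 152nd place. Both genes were higher in replicate 1 than in replicate 2, and the intervals of the 2 libraries did not overlap for either gene.

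Mir10a stood above Mir10b in each library. The ratio of their counts was 1.62 in replicate 1 (exact Clopper-Pearson 95% interval 1.52 to 1.74) and 1.47 in replicate 2 (1.34 to 1.61), a mean of 1.55 ± 0.112. Across libraries the ranges in CPM were separated by only 0.142 CPM, less than the SD of either gene. Both 5p products have 23 bases, and the tables give neither read lengths nor arms. Dividing CPM by annotated length, 110 bases for Mir10a and 68 for Mir10b, puts Mir10b first, at 3.36 against 3.24 CPM per base.

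Of the Mir196 genes, Mir196b was the one with appreciable unique counts. It had 209 counts in replicate 1 and 105 in replicate 2, or 41.3 and 25.2 CPM, a mean of 33.3 ± 11.4 CPM (SD, n = 2) and the 260th place. Replicate 1 was again the higher library. Mir196a-2 had 18 and 7 counts, or 3.56 CPM (exact Poisson 95% interval 2.11 to 5.62) and 1.68 CPM (0.677 to 3.47), and these intervals overlapped. Mir196a-1 had 1 count in replicate 1 and 0 in replicate 2, at or under the limit that a count of 0 allows in both libraries. The order of Mir196b over Mir196a-2, a ratio of 11.6 in replicate 1 and 15.0 in replicate 2, compares unique reads only and is not an order of miR-196b over miR-196a.

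Mir615, the only one of the 6 whose product has no close relative among them, had 56 counts in replicate 1 and 34 in replicate 2. These are 11.1 CPM (exact Poisson 95% interval 8.36 to 14.4) and 8.18 CPM (5.66 to 11.4), with overlapping intervals and a mean of 9.62 ± 2.04 CPM (SD, n = 2), at the 302nd place. In descending order of mean CPM the genes ran Mir10a, Mir10b, Mir196b, Mir615, Mir196a-2 and Mir196a-1, and no neighbours in that order had overlapping ranges over the 2 libraries. Reads on the opposite strand amounted to 1 read at Mir10a in replicate 1 and to 0 at the other 5 genes.

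**Figure D2:**
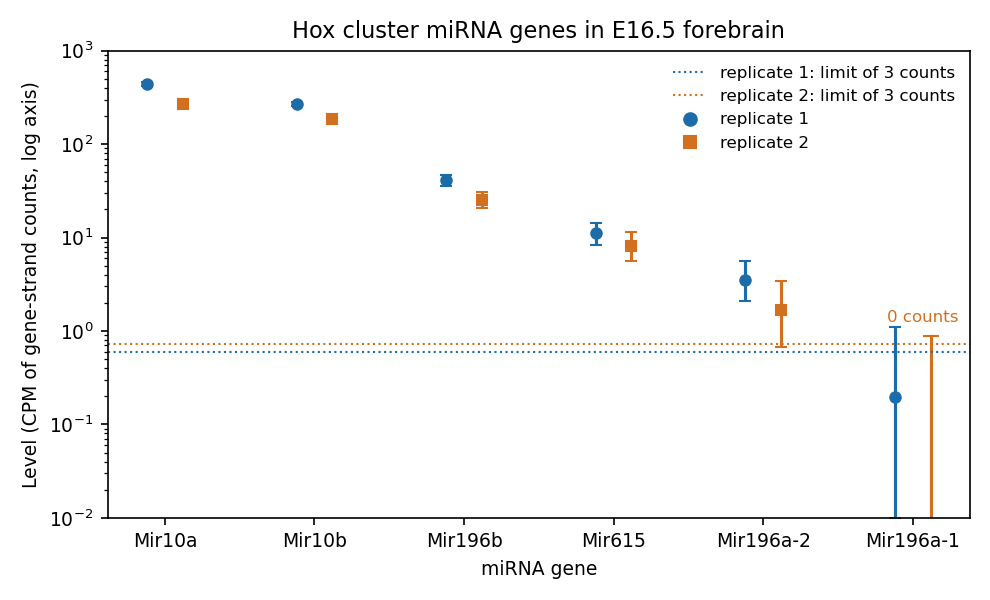
Level of each gene in CPM on a log axis, replicate 1 as circles and replicate 2 as squares, with exact Poisson 95% intervals and dotted lines at the limit of 3 counts. Levels fall from 441 and 271 CPM for Mir10a to 1 and 0 counts for Mir196a-1, and replicate 1 is the higher one for every gene. The intervals of the 2 libraries overlap for Mir615, Mir196a-2 and Mir196a-1.

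Together the 6 genes had 3887 counts in replicate 1 and 2045 in replicate 2, or 768 and 492 CPM, a ratio of 1.56. Mir10a made up 57.4% of these counts in replicate 1 and 55.2% in replicate 2. Mir10b made up 35.3% and 37.7%, and Mir196b 5.38% and 5.13%. The ratio of the miR-10 genes to Mir196b was 17.2 in replicate 1 (exact Clopper-Pearson 95% interval 15.0 to 19.9) and 18.1 in replicate 2 (14.9 to 22.2), and these intervals overlap. The shares of the genes within the set thus stayed close while its total differed.

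The close relatives of the miR-10 genes outside the Hox clusters were far more abundant. Mir99a, Mir99b and Mir100 encode miRNAs that share a stretch with miR-10a, but carry another seed, and they are printed to show that shift.
miR-10a-5p: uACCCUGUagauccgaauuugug
miR-99a-5p: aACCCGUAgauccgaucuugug
miR-100-5p: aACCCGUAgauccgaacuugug
miR-99b-5p: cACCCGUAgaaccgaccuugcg

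miR-10a-5p and miR-100-5p shared a run of 11 bases, at positions 7 to 17 of miR-10a-5p and 6 to 16 of miR-100-5p, so the shared stretch is offset by a base and the seeds differ. The run that miR-10a-5p shared with miR-99a-5p was 10 bases at the same offset, and that with miR-99b-5p 5 bases. No such run was computed between miR-10b-5p and miR-99b-5p. Mir99a stood at 231439 CPM in replicate 1 and 267830 CPM in replicate 2, Mir100 at 28130 and 31478 CPM, and Mir99b at 22345 and 19505 CPM. The 3 genes together had 396 times the counts of Mir10a and Mir10b in replicate 1 (exact Clopper-Pearson 95% interval 383 to 409) and 698 times in replicate 2 (667 to 731). The Mir125 genes that accompany them, Mir125a, Mir125b-1 and Mir125b-2, stood at 5104 ± 737, 2470 ± 179 and 2513 ± 73.9 CPM (SD, n = 2). Reads that fit both Mir125b-1 and Mir125b-2 are not in these values, so they are not the level of miR-125b. By uniquely placed reads, each of these 6 relatives and companions was above every Hox cluster gene in both libraries.

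Mir10a, Mir10b and Mir196b differed between the libraries beyond counting error, and all 3 were lower in replicate 2. Each gene's 2 counts were set against the library totals after TMM scaling (trimmed mean of M values) in an exact binomial test, two-sided, with Benjamini-Hochberg adjustment over the 466 genes that reached 10 counts in sum. Of the 5 Hox cluster genes tested, 3 were called lower in replicate 2 and 0 were called higher. Mir196a-1 was too low to be tested. Over all tested genes 21.9% were called lower in replicate 2, 23.4% were called higher and 45.3% were called in either direction. The test compares these 2 libraries and takes reads as independent, so it holds no error between pools.

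Mir10a had a log2 ratio of replicate 2 to replicate 1 of -0.55 (95% counting interval -0.66 to -0.45), adjusted p 6.25e-26 by that exact test. Mir10b had a log2 ratio of -0.41 (-0.54 to -0.28), adjusted p 1.07e-09 by the same exact test. Mir196b had -0.56 (-0.92 to -0.22), adjusted p 0.00244 by the same exact test. All 3 were lower in replicate 2 by ratios close to one another. Mir196a-2 had -0.88 (-2.44 to 0.39) and Mir615 had -0.28 (-0.95 to 0.35), adjusted p 0.274 and 0.562 by that exact test, so neither passed, and their intervals hold the ratios of the other 3. The median log2 ratio was -0.55 over the 5 tested Hox cluster genes and 0.01 over all tested genes.

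Differences of this size were also found in other genes of these libraries. The median size of the log2 ratio over all tested genes was 0.33, and 15.2% of the tested genes had a log2 ratio at or below that of Mir10a, 23.0% at or below that of Mir10b and 13.9% at or below that of Mir196b. These shares take in genes with few counts, whose ratios spread widely by counting alone, and were not computed for genes at the level of Mir10a. In edgeR's exact negative binomial test, which takes 1 spread for all genes from both libraries (a biological coefficient of variation of 18.1%), none of the 466 genes passed and the adjusted p of Mir10a was 0.893. By that test 26 genes had an unadjusted p under 0.05, 0 of them Hox cluster genes. Its spread was taken from the same 2 libraries that it compares, so the difference between them is already in that spread. Few calls are therefore built in, and the lack of calls does not show that the libraries are alike.

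**Figure D3:**
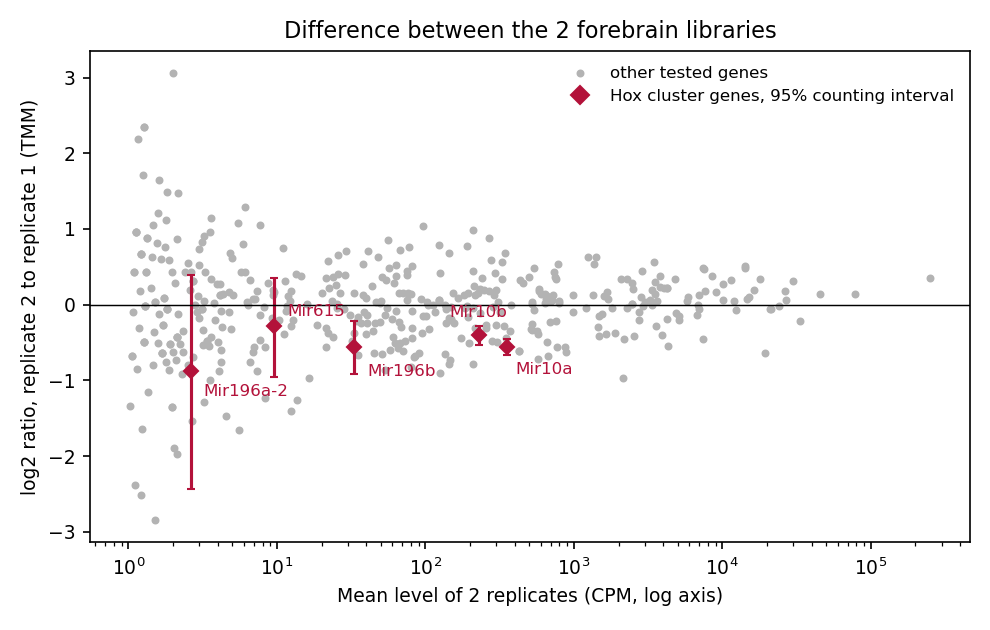
Log2 ratio of replicate 2 to replicate 1 after TMM scaling against mean CPM (log axis) for the 466 tested genes, with the 5 tested Hox cluster genes as diamonds with 95% counting intervals. All 5 diamonds lie below 0, from -0.28 (Mir615) to -0.88 (Mir196a-2), within the cloud of the other genes at their level.

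Lists of miRNAs of other tissues differed between the libraries in both directions. Their counts of calls stand against the shares over all tested genes, 21.9% lower and 23.4% higher. A count such as 1 of 4 or 3 of 9 is near these. Summed levels are in CPM without TMM scaling, while the calls were made with it. The pluripotent cell list, 10 genes with Mir302a the highest, was lower in sum in replicate 2, like the Hox cluster genes. It stood at 301 CPM in replicate 1 and 160 CPM in replicate 2, with 4 of 6 tested genes lower and 0 higher. Those 4, Mir302a to Mir302d, lie side by side on chromosome 3 and are 1 locus, not 4 separate ones. The other tested genes, Mir293 and Mir294 on chromosome 7, were not called and had log2 ratios of 0.74 and 0.09. Mir367, Mir290a and Mir295 of that list were at 0. The liver list, led by the hepatocyte miRNA Mir122, stood at 245 and 197 CPM, with 1 of 4 genes lower and 0 higher. The red blood cell list, led by Mir451a, stood at 306 and 240 CPM with 1 of 3 lower and 1 higher, and the striated muscle list, led by Mir206, at 46.8 and 38.7 CPM with 1 of 4 lower and 1 higher. Mir1a-1, Mir133a-1 and Mir133a-2, defining miRNAs of muscle, were at 0 by unique reads. Reads that fit more than 1 copy of such a gene are not in these counts, so the 0 does not show absence of their miRNAs.

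The next 4 lists had a higher summed level in replicate 2, where the Hox cluster genes were lower. The list of connective tissue and mesenchyme, led by Mir143, stood at 4402 and 4798 CPM with 4 of 5 tested genes higher and 0 lower. Of those called higher, Mir143 and Mir145a lie side by side on chromosome 18 and are 1 locus. The epithelial list, led by Mir429, stood at 3220 and 3889 CPM with 6 of 7 higher and 1 lower. Of those called higher, Mir200a, Mir200b and Mir429 are 1 locus on chromosome 4, and Mir141 and Mir200c are 1 locus on chromosome 6. These calls are therefore not 6 separate ones. The myeloid list, led by Mir223, stood at 207 and 279 CPM with 2 of 4 higher and 0 lower. That sum leaves out the locus of Mir142b, at 0 on its own strand but with 926 and 941 reads on the opposite strand. Endothelial Mir126a at 16611 and 18999 CPM was higher. The other two lists were close in level between the libraries. That of choroid plexus and ciliated cells, led by Mir449a, stood at 4943 and 5079 CPM with 1 of 7 higher and 1 lower. The forebrain list stood at 23314 and 22637 CPM, with 3 of 9 tested genes higher and 1 lower. Reads that fit more than 1 copy of a gene, such as Mir128-1 and Mir128-2, are not in that sum. Whether tissue from outside the forebrain took part in the levels of the Hox cluster genes was not tested. In bulk tissue, fewer cells that express a gene and less RNA per cell cannot be told apart.

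**Figure D4:**
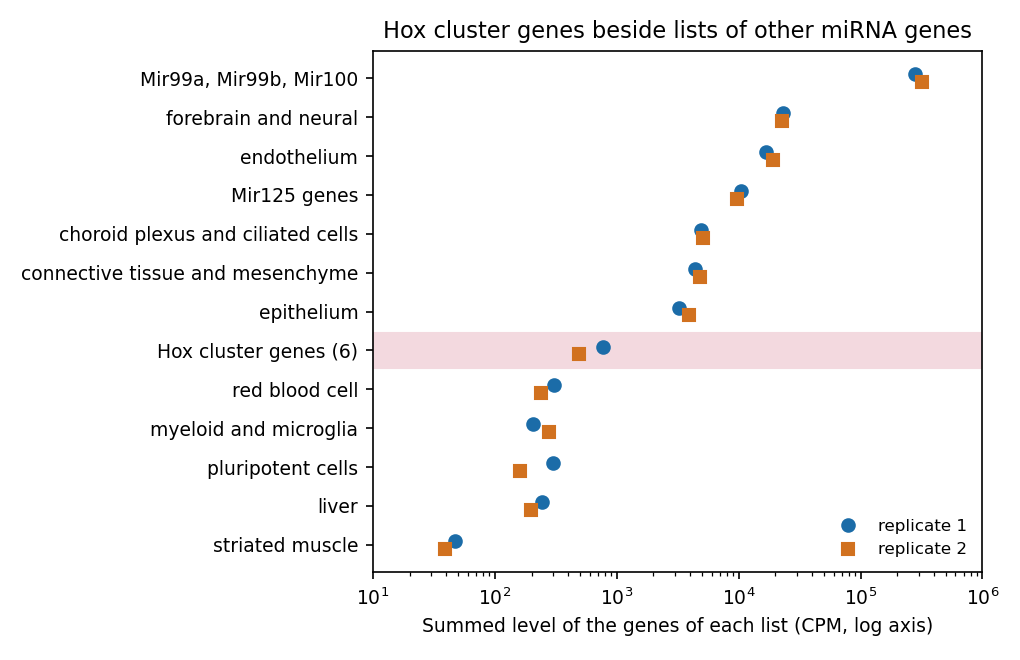
Summed level of each list of miRNA genes in CPM (log axis), replicate 1 as circles and replicate 2 as squares, with the Hox cluster genes on the shaded line. At 768 and 492 CPM they stand between the epithelial list (3220 and 3889 CPM) and the red blood cell list (306 and 240 CPM).

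The genes most like Mir10a in level over the 2 libraries, by distance of log2(CPM + 1), were Mir341 (415 and 278 CPM), Mir3099 (436 and 310 CPM) and Mir3071 (388 and 288 CPM). Those most like Mir10b were Mir485 (247 and 181 CPM), Mir384 (254 and 213 CPM) and Mir700 (291 and 218 CPM). The distances ran from 0.09 to 0.20 for the first 3 and from 0.14 to 0.26 for the others. With 2 libraries this likeness describes 2 levels per gene and no pattern over conditions.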

How the data were processed

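The authors deposited raw read counts per gene, 1 table per library, in 3 columns (without strand and for each strand) with 4 rows of unassigned reads. Reads were placed on mm10 with the GENCODE M4 annotation, per the deposited file descriptions. For the aligner, the counter, their versions and any trimming, nothing is given in the sources used here. The third column of the table, the gene-strand count, was used, and unassigned rows were kept out of totals and tests. Multimapping reads, of which the tables give the total only, were 40.5% and 43.3% of all reads, unmapped reads 19.1% and 15.2%, and reads outside the genes 2.50% and 2.82% (replicates 1 and 2).

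Symbols and positions came from GENCODE M21 by gene identifier without version, which named 1894 of 1973 genes. Sequences came from RefSeq (GRCm38.p6). TMM factors (edgeR 4.0.16, R 4.3.3) used genes that reached 10 counts in sum, 0.5 was added to counts for log2 ratios, and the threshold was an adjusted p of 0.05. With 1 group, no quasi-likelihood test could be made. Alternatives were other scalings (DESeq2 1.42.0 size factors, unscaled totals), filters, strands, denominators and an exact negative binomial test. The genes named are the 6 genes, the forebrain list, the Mir99, Mir100 and Mir125 genes, the highest gene of every other list, and the 3 genes nearest in level to Mir10a and to Mir10b. Other list genes are named where they were at 0, and the tested genes of the pluripotent cell list are named too. Genes of the epithelial and connective tissue lists are named where they share a locus. The genes, lists and rules were chosen with earlier results of these data known, and the search for matching sites after the counts were seen. The labels name separate pools but not how they were made, so the SD may be partly technical.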

Additional observations from a re-analysis of the deposited data

How the results depend on the processing

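Every alternative kept the direction of all 5 tested Hox cluster genes. Of these, 3 were called lower in replicate 2 with unscaled totals, DESeq2 size factors, no filter on low counts and counts without strand. Over all tested genes, 155 of 466, 107 of 466, 97 of 703 and 105 of 479 were called lower in these settings, in that order. Over these and with 1 added to each count, the log2 ratio ran from -0.70 to -0.55 for Mir10a, from -0.55 to -0.40 for Mir10b and from -0.71 to -0.56 for Mir196b, with adjusted p up to 2.21e-25, 2.05e-09 and 0.00366 by the exact binomial test. With the negative binomial exact test 0 of them were called (26 of all genes had an unadjusted p under 0.05), and 0 of all genes were called higher and 0 lower, where the binomial test called 109 and 102. That test allows for a spread between pools, but takes it from the same 2 libraries that it compares, so few calls are built in. Unscaled totals shifted log2 ratios by -0.14 and called 67 genes higher and 155 lower.

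The summed level of the 6 genes, 630.0 CPM, was 236 CPM relative to all reads and 836 CPM relative to a total without Mir99a, and ran from 492 to 768 CPM with 1 library left out. The ratio of Mir10a to Mir10b ran from 1.47 to 1.62 and that of the Mir99 and Mir100 genes to the miR-10 genes from 396 to 698 with 1 library left out. The latter differ by over 1.5 times. By CPM per base of annotated length 4 of the 6 genes kept their place, as Mir10a and Mir10b changed places. No paired analysis was possible because there is only 1 group. Low counts limit Mir196a-1, Mir196a-2 and Mir615, and the 2 Mir196a genes also lose reads to the multimapping total at any depth.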

Other observations

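The Hox messenger RNAs hold sequence that matches miR-196, which the tables, with miRNA genes only, cannot follow to an effect. The best ungapped match to the full complement of miR-196a-5p among the Hox genes searched lay in the 3′ untranslated region of Hoxb8. It differed at 1 of 22 bases. It lies at chr11:96284888-96284909, plus strand, in GRCm38. The complement and the site are given 5′ to 3′, with the differing base of the site in capitals.
Complement of miR-196a-5p: cccaacaacatgaaactaccta
Hoxb8 site: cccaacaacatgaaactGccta

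The difference is A18G, counted from 1 at the 5′ end of the complement, and it falls within the seed match. The base of miR-196a-5p that faces it is U, with which G can still pair as a G:U wobble. The site matched the complement of miR-196b-5p at 20 of 22 bases. The next best window, in Hoxd8, matched miR-196a-5p at 15 of 22. Only the messenger strand was searched, in 1 coding transcript per Hox gene, that with the longest annotated 3′ untranslated region. Genes without such a region were left out. A match is not shown to be a working site.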
